A study of Mus musculus with 12 samples.

Results

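The genes of the aryl hydrocarbon receptor (AhR) complex were examined in mouse liver. They were taken as the rows of the deposited gene table that carry the symbols *Ahr*, *Arnt*, *Ahrr*, *Ptges3*, *Hsp90aa1* and *Hsp90ab1*, which are 6 of 24532 genes. They were picked by symbol and not by a cut on measured values, though earlier results of these data were known. All 6 were found in the table, and 5 of them had enough reads to be among the 14038 genes tested. *Ahrr* did not.

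AhR is a ligand-activated transcription factor of the bHLH-PAS family that senses dioxins, dietary indoles and tryptophan metabolites such as kynurenine. Without a ligand it rests in the cytosol, bound to a dimer of the chaperone Hsp90 (encoded by *Hsp90aa1* and *Hsp90ab1*) and to the co-chaperone p23 (encoded by *Ptges3*), which hold it in a form that can bind ligand. With a ligand it enters the nucleus, leaves the chaperones, pairs with ARNT (encoded by *Arnt*) and binds DNA upstream of genes of drug metabolism such as *Cyp1a1*. The AhR repressor (encoded by *Ahrr*) is itself induced by AhR in many tissues and competes with AhR for ARNT.

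The 12 libraries came from whole livers of male C57BL/6 mice, 3 livers in each of 4 groups, which are labelled WT or *Ahr* HKO and control or ethanol diet. Mice of both genotypes carried *Ahr* alleles with loxP sites around exon 2 (*Ahr* fl/fl). The *Ahr* HKO mice also carried *Alb-Cre*, in which the albumin promoter drives Cre in hepatocytes, and the WT mice were littermates without Cre. Liver cells in which the albumin promoter is not active are not targeted, and recombination in each cell type was not checked here. From 10 to 12 weeks of age the mice were fed for 5 weeks either a Lieber-DeCarli liquid diet with 5% ethanol by volume (36% of calories) or an isocaloric control liquid diet. The libraries were poly(A)-selected, each from a separate liver by its label, and the labels do not say whether livers of different groups were collected or sequenced together.

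Reads on genes ranged from 46306518 to 74336255 per library. Hepatocyte genes were high in each library: *Alb* ranged from 47276 to 90556 CPM (read counts scaled to the size of each library with TMM factors). A pair of libraries stood apart in markers of other liver cells. WT ethanol liver 2 had a summed macrophage marker level of 996 CPM against 446 and 413 CPM in the other livers of its group, and *Ahr* HKO control liver 1 had 1110 CPM against 716 and 408 CPM. That liver also had the most *Spp1*, a gene listed among cholangiocyte markers (462 CPM against 166 and 35 CPM), while *Krt19*, *Krt7* and *Sox9* of the same list were not raised in it. Values without these libraries are given beside the members' results and the list counts they change most.

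*Ahr* lies on chromosome 12 (chr12:35497974-35535038, minus strand, GRCm38), and its reference transcript has 11 exons and 5548 bases. Exon 2, which lies between the loxP sites, spans chr12:35526681-35526868, is wholly coding and has 188 bases. It is shown here because it is the sequence removed by Cre, and it encodes part of the bHLH region with which AhR binds DNA and ARNT.
*Ahr* exon 2: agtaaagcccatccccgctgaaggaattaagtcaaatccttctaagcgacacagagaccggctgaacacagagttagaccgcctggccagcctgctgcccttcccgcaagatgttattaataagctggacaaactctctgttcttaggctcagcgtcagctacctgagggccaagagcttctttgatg
Since 188 is not a multiple of 3, joining exon 1 to exon 3 shifts the reading frame, and the joined sequence reaches a stop codon as its codon 29 of the 806 codons of the full reading frame. The junction is shown with that stop codon in capitals, as joined from the GENCODE transcript and not as read in these libraries.
*Ahr* exon 1 joined to exon 3: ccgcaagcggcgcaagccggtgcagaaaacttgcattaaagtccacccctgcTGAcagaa
Exon 2 makes up 3.39% of the transcript. The gene-level read count covers all 11 exons, so it hardly checks the deletion, and a transcript without exon 2 would be counted almost in full. Genotypes are therefore given as labelled.

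On the TPM scale, which corrects for gene length and allows levels to be set side by side between genes, *Hsp90ab1* was the most abundant member in each of the 4 groups. Its mean TPM was 504 ± 49.4 (SD, n = 3) in WT control livers and 1081 ± 125 in *Ahr* HKO ethanol livers. *Ptges3* (58.4 ± 3.52 TPM) and *Hsp90aa1* (49.2 ± 11.1 TPM) came next in WT control livers and overlapped each other, as they did in WT ethanol livers. In both *Ahr* HKO groups *Hsp90aa1* was second and did not overlap *Ptges3*. *Arnt* followed at 10.8 ± 0.712 TPM in WT control livers and exceeded *Ahr* (5.14 ± 0.515 TPM) without overlap, and so it did in WT ethanol livers, whereas *Arnt* and *Ahr* overlapped in both *Ahr* HKO groups. *Ahrr* was last in each group, with no library above 0.0673 TPM. The chaperone genes of the complex were thus present at far higher mRNA levels than the receptor and its partner in these livers.

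Across the tested members, the number called (edgeR quasi-likelihood test with Benjamini-Hochberg adjustment, adjusted *P* under 0.05) differed between the comparisons. For ethanol against control diet, 0 of 5 were called in WT, where 9.47% of all tested genes were called. The same count by DESeq2 was 2, and 4 of the 5 had an unadjusted *P* under 0.05. In livers labelled *Ahr* HKO the diet comparison called 3 of 5 (1 upregulated, 2 downregulated) against 30.8% of all tested genes. For *Ahr* HKO against WT, 4 of 5 were called on the control diet, all of them upregulated, where the share over all genes was 29.6%, and 0 of 5 on the ethanol diet, where it was 1.1%. On the ethanol diet DESeq2 called 2, and 2 members had an unadjusted *P* under 0.05. The test of whether the diet effect differed between genotypes (interaction) called 2 of 5, both with a lower diet effect in *Ahr* HKO, against 22.3% of all genes. WT control livers serve in both the WT diet comparison and the control-diet genotype comparison, and each other group is likewise shared by 2 comparisons.

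The separation of the livers was counted as well. In CPM the 3 livers of one group did not overlap those of the other for 3 of 5 members in the WT diet comparison (32.9% of all genes), 2 of 5 in the *Ahr* HKO diet comparison (49.8%), 5 of 5 for genotype on the control diet (47.3%) and 3 of 5 for genotype on the ethanol diet (27.9%). The counts of calls depended on single livers. The 0 calls for diet in WT became 2 without WT ethanol liver 1. The 3 calls for diet in *Ahr* HKO became 0 without *Ahr* HKO ethanol liver 2 or without liver 3 of that group. The 4 calls for genotype on the control diet became 2 without WT control liver 2 or without WT control liver 3. The 2 interaction calls stood at 2 whichever of the 12 livers was left out.

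**Figure D1:**
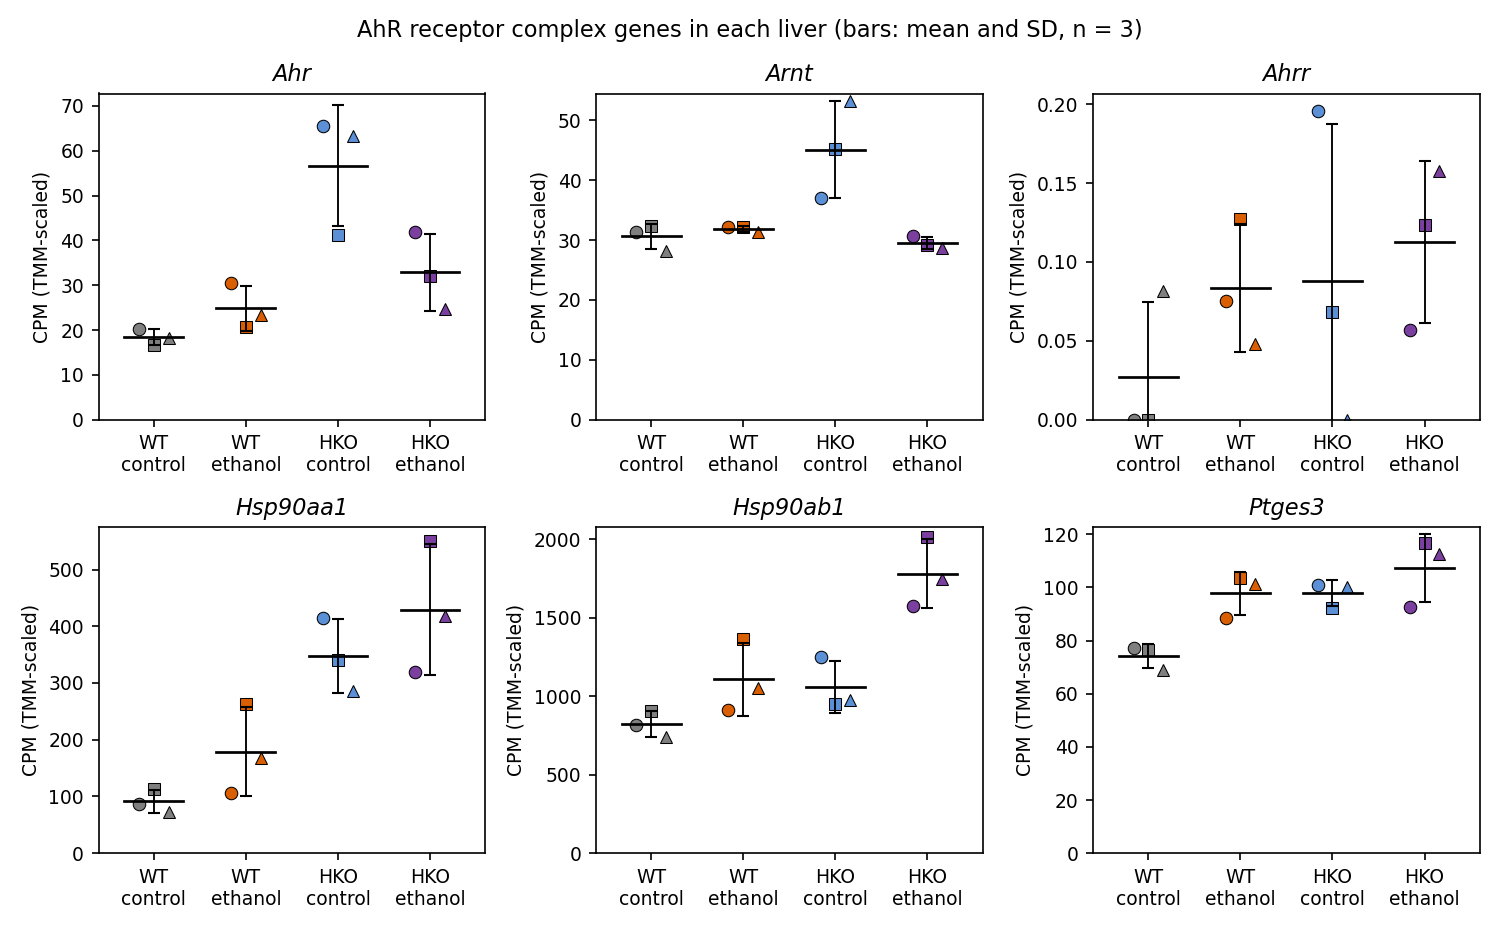
TMM-scaled CPM (vertical axis, linear, one panel per gene) of each member in each of the 12 livers, by group; circles, squares and triangles are livers 1, 2 and 3, and bars show the mean and SD (n = 3). *Ahr* sat between 41.3 and 65.5 CPM in the *Ahr* HKO control livers, above the 16.6 to 20.2 CPM of the WT control livers, and *Ahrr* stayed below 0.2 CPM in each library.

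*Ahr*, the receptor gene, was measured at 20.2, 16.6 and 18.3 CPM in the 3 WT control livers and at 30.5, 20.8 and 23.4 CPM in the WT ethanol livers. In the livers labelled *Ahr* HKO it stood at 65.5, 41.3 and 63.3 CPM on the control diet and at 41.8, 32.1 and 24.7 CPM on the ethanol diet. All *Ahr* HKO control livers were above all WT livers of either diet, *Ahr* HKO control liver 2 lay just below *Ahr* HKO ethanol liver 1, and the WT livers on ethanol were above those on the control diet.

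On the control diet, *Ahr* mRNA was upregulated in livers labelled *Ahr* HKO, by 3.1-fold against WT (log2 fold change 1.63 ± 0.188 SE, edgeR adjusted *P* = 0.00164), and by 1.52 on the log2 scale without *Ahr* HKO control liver 1 (edgeR adjusted *P* = 0.00556). This direction is opposite to that of a loss of transcript, and the count does not tell transcripts with exon 2 from those without it. In *Ahr* HKO the ethanol diet lowered *Ahr*, with a log2 fold change of -0.79 ± 0.244 (edgeR adjusted *P* = 0.0467), and this call did not hold without *Ahr* HKO control liver 1 (log2 fold change -0.67, adjusted *P* = 0.123), nor without *Ahr* HKO control liver 3, *Ahr* HKO ethanol liver 2 or *Ahr* HKO ethanol liver 3 (adjusted *P* from 0.111 to 0.119). It was also lost without the filter on low counts (edgeR adjusted *P* = 0.0543), with quantile-normalized FPKM (limma, 0.0551) and with unfiltered FPKM (limma, 0.0756). In WT the log2 fold change with ethanol was 0.45 ± 0.152 (edgeR adjusted *P* = 0.111). It was 0.26 without WT ethanol liver 1, and it passed in limma on log2(FPKM + 1) and log2(FPKM + 0.1) (adjusted *P* = 0.0456 and 0.0412). The difference between these diet effects was -1.23 ± 0.311 on the log2 scale (95% interval -1.91 to -0.54, edgeR adjusted *P* = 0.0176), and it lay between -1.44 and -1.06 with each liver left out in turn. On the ethanol diet the genotypes differed by 0.40 ± 0.211 (edgeR adjusted *P* = 0.316), with overlapping livers.

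Other liver cells express *Ahr* too, and in whole liver fewer cells of a type cannot be told apart from less RNA per cell. Of 10 Kupffer cell and macrophage markers, all 10 were downregulated by ethanol in *Ahr* HKO (edgeR, 100% against 15.9% of all genes), with a median log2 fold change of -1.13. Their summed level was 408 to 1110 CPM on the control diet and 260 to 322 CPM on the ethanol diet. Without *Ahr* HKO control liver 1, 6 of the 10 passed. Of 8 sinusoidal endothelial markers, 4 fell and none rose (50% and 0%, against 15.9% and 14.9% of all genes), with sums of 380 to 400 CPM and 249 to 275 CPM. Neutrophil markers were low throughout, with sums of 7.15 to 8.56 CPM in *Ahr* HKO control livers and 2.41 to 3.44 CPM in *Ahr* HKO ethanol livers, where *Ly6g* and *Mpo* were at 0. For genotype on the control diet, 0 of 10 macrophage markers passed (edgeR, 1 at an unadjusted *P* under 0.05). There 1 of 8 endothelial (12.5%), 1 of 5 tested cholangiocyte (20%) and 2 of 3 tested neutrophil markers (66.7%) were higher, against 15.4% of all genes. Of 9 stellate cell and fibroblast markers, 3 rose and 1 fell with ethanol in *Ahr* HKO (33.3% and 11.1%, against 14.9% and 15.9% of all genes). With genotype on the control diet 3 fell (33.3% against 14.2%, and 1 without *Ahr* HKO control liver 1). Of 7 lymphocyte markers 1 fell with genotype on the control diet (14.3% against 14.2% of all genes). Of 5 hepatocyte markers 1 rose there (20% against 15.4%) and 1 rose with ethanol in *Ahr* HKO (20% against 14.9%). The shares above that rest on 1 marker lay near those of all genes. With ethanol in WT 2 of 3 tested neutrophil and 3 of 9 stellate markers rose (66.7% and 33.3%, against 4.84%). Of 5 hepatocyte markers 1 fell there (20% against 4.63%). Without WT ethanol liver 2 these counts were 0, 2 and 0, and 2 of 8 endothelial markers fell. For genotype on the ethanol diet 0 of 10 macrophage markers passed, with 9 at an unadjusted *P* under 0.05 (edgeR, median -0.96). The part of these cells in the *Ahr* result was not tested.

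**Figure D2:**
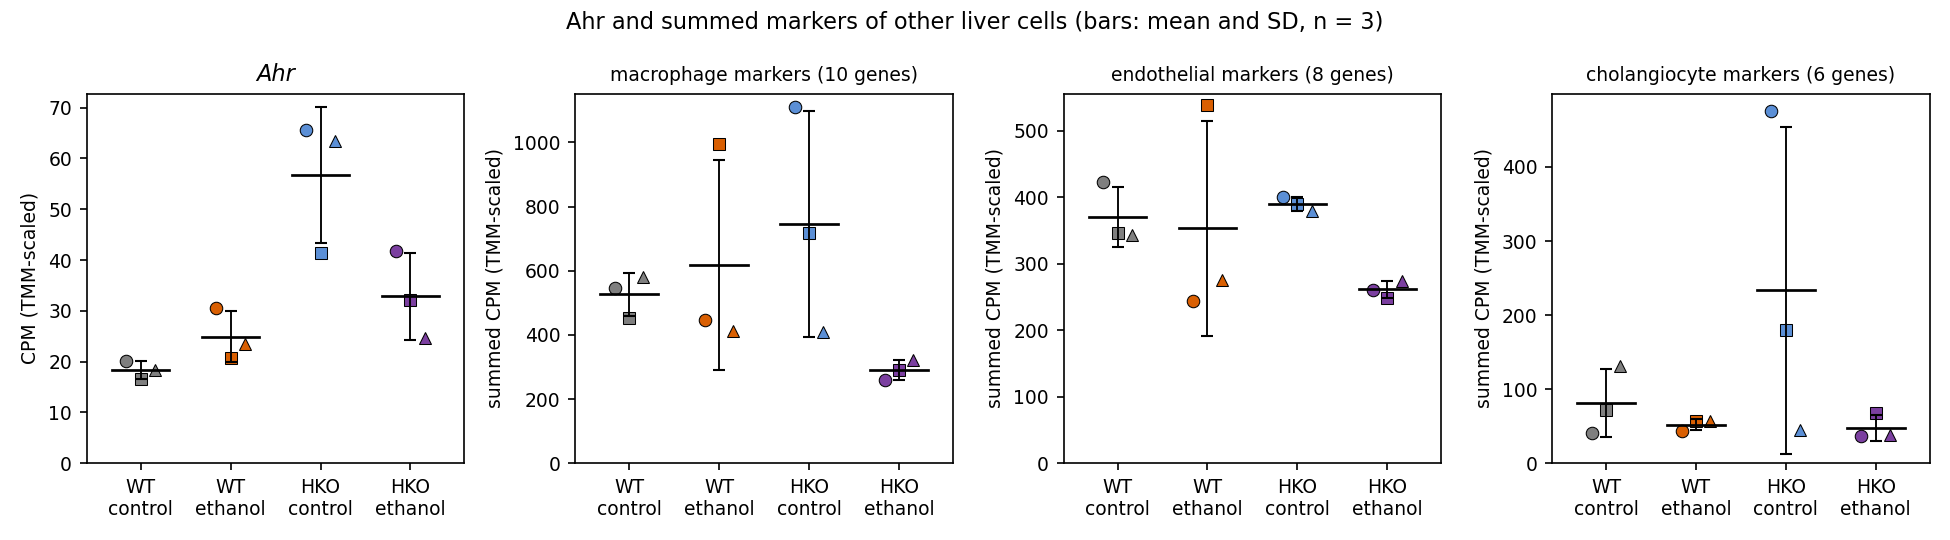
*Ahr* (first panel, CPM) and the summed CPM of macrophage, endothelial and cholangiocyte markers (other panels; linear vertical axes) in each liver by group; symbols are livers 1 to 3, bars are mean and SD (n = 3). Macrophage and endothelial sums of the *Ahr* HKO ethanol livers lie below those of the *Ahr* HKO control livers, and the high cholangiocyte sum of *Ahr* HKO control liver 1 (476 CPM) is made up of 462 CPM of *Spp1*.

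*Arnt*, the shared partner of AhR and of the hypoxia-inducible factors, was even across the WT livers. It was measured at 31.3, 32.3 and 28.2 CPM on the control diet and at 32.2, 32.1 and 31.3 CPM on the ethanol diet, with a log2 fold change of 0.07 ± 0.089 (edgeR adjusted *P* = 0.654, 95% interval -0.14 to 0.28). On the TPM scale the WT groups did not overlap: no control liver was above 11.4 TPM and no ethanol liver below 13.3 TPM. Over all genes, FPKM values also ran higher with ethanol in WT: the median log2 fold change was 0.03 by edgeR and 0.10 by limma on log2(FPKM + 1). The share of all genes without overlap in TPM was not counted. In *Ahr* HKO it was 37.0, 45.2 and 53.2 CPM on the control diet and 30.6, 29.1 and 28.7 CPM on the ethanol diet. The *Ahr* HKO control livers were above all other livers of the study. *Arnt* was upregulated by 1.48-fold in *Ahr* HKO on the control diet (log2 fold change 0.56 ± 0.145, edgeR adjusted *P* = 0.0245), a call that did not hold without any one of the 3 WT control livers or without *Ahr* HKO control liver 2 (adjusted *P* from 0.0555 to 0.083). With ethanol it was downregulated in *Ahr* HKO (-0.61 ± 0.141, edgeR adjusted *P* = 0.0175), and this call did not hold without *Ahr* HKO ethanol liver 2 or 3 (adjusted *P* 0.0555 and 0.0599). The diet effect differed between genotypes by -0.67 ± 0.165 (edgeR adjusted *P* = 0.0153), with values of -0.80 to -0.54 as each liver was left out. Among the members, *Ahr* and *Arnt* were those whose response to the diet passed the main interaction test, both with a lower diet effect in *Ahr* HKO than in WT. The *Ptges3* interaction was also negative (-0.27 ± 0.151, edgeR adjusted *P* = 0.227), and it passed in 2 of 9 alternative settings. On the ethanol diet the *Arnt* livers of both genotypes did not overlap but differed by only -0.11 ± 0.079 (edgeR adjusted *P* = 0.452).

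**Figure D3:**
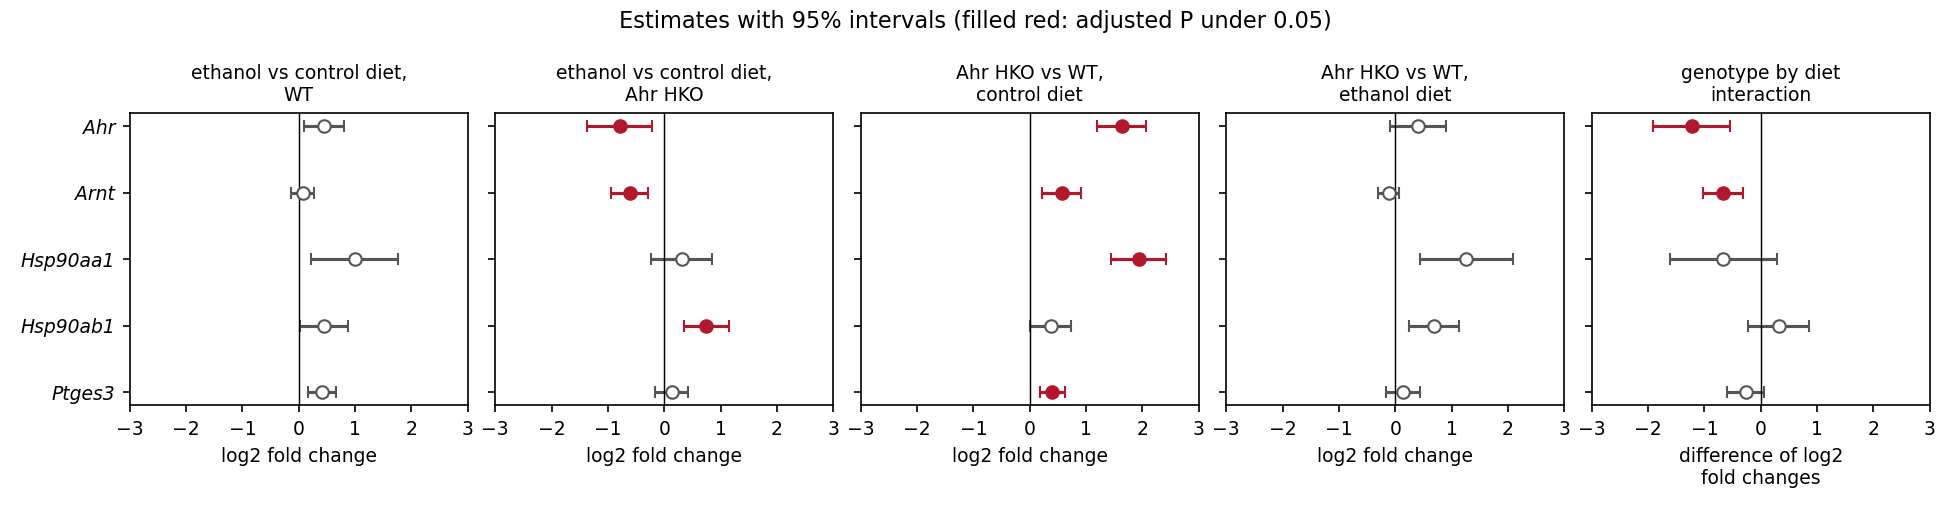
Log2 fold changes (horizontal axes) of the 5 tested members in the 4 comparisons of 2 groups and, at the right, the difference of the diet effects between genotypes; points are edgeR estimates and bars 95% intervals, with filled red points for adjusted P under 0.05. *Ahr* and *Arnt* lie to the right of 0 for genotype on the control diet and to the left of 0 for diet in *Ahr* HKO and for the interaction.

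The ratio of *Ahr* to *Arnt* within each liver was taken on the TPM scale. It was 0.51, 0.405 and 0.513 in WT control livers and 0.75, 0.513 and 0.593 in WT ethanol livers. In *Ahr* HKO livers it was 1.41, 0.725 and 0.944 on the control diet and 1.08, 0.877 and 0.682 on the ethanol diet. All *Ahr* HKO control livers were above all WT control livers, and the geometric mean ratio was 0.988 against 0.473. With 3 livers against 3, the exact two-sided permutation test cannot give a *P* below 0.1, and it gave that smallest value for this comparison (0.16 after adjustment over 8 ratio tests). For diet in *Ahr* HKO the ratios overlapped (geometric means 0.865 and 0.988, exact permutation *P* = 0.6), and the sign turned without *Ahr* HKO control liver 1. For diet in WT the ratios were higher with ethanol, 0.611 against 0.473 as geometric means, while the highest control and the lowest ethanol ratio both rounded to 0.513 (exact permutation *P* = 0.1).

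*Ahrr*, the repressor gene, was nearly silent in these livers. Its raw counts were 0, 0 and 4 in WT control livers, 4, 8 and 3 in WT ethanol livers, 12, 4 and 0 in *Ahr* HKO control livers, and 4, 8 and 7 in *Ahr* HKO ethanol livers. A count of 0 allows up to 3 reads, which corresponds to between 0.0425 and 0.0676 CPM across the libraries and covers counting error only. The counts of the groups overlapped in all 4 comparisons, and no fold change is given. With the filter on low counts removed, edgeR gave adjusted *P* values from 0.531 to 0.904 for *Ahrr* in the 5 comparisons, so a change was not detectable at this depth. The RefSeq table (GRCm38.p6) gives a promoter for *Ahrr* at chr13:74292282-74292581 on the minus strand, running from 250 bases before to 50 after the transcript start. It is shown because the gene is a textbook AhR target, with matches to the core letters of the AhR-ARNT binding motif, GCGTG on either strand, in capitals.
*Ahrr* promoter: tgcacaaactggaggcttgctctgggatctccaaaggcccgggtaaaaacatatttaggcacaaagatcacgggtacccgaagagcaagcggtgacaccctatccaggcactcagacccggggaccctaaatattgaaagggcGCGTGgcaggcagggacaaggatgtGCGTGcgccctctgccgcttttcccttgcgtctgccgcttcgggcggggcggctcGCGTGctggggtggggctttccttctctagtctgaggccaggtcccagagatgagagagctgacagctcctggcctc
It holds 3 matches. The same letters are one form of the core bound by hypoxia-inducible factors with ARNT, and they are common: 32.4% of all 32851 promoter windows of this length hold at least 1 match. The promoter of *Ptges3* holds 2 matches and that of *Arnt* 1. A match is a description of the letters alone.

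*Hsp90aa1* encodes the stress-inducible cytosolic Hsp90 and *Hsp90ab1* the constitutive one. *Hsp90aa1* was measured at 86.2, 114 and 73.1 CPM in WT control livers and at 106, 263 and 168 CPM in WT ethanol livers. In *Ahr* HKO livers it stood at 415, 341 and 285 CPM on the control diet and at 320, 551 and 417 CPM on the ethanol diet. Each *Ahr* HKO liver was above each WT liver, on either diet. On the control diet the gene was upregulated by 3.82-fold in *Ahr* HKO (log2 fold change 1.93 ± 0.207, edgeR adjusted *P* = 0.00138), and values from 1.79 to 2.12 were obtained with each liver left out in turn. On the ethanol diet the estimate was 1.26 ± 0.352 (edgeR adjusted *P* = 0.121), while DESeq2 (adjusted *P* = 0.00536) and a single edgeR fit of all 12 libraries (adjusted *P* = 0.0467) passed. In WT the log2 fold change with ethanol was 0.99 ± 0.331 (edgeR adjusted *P* = 0.109). It was 0.59 without WT ethanol liver 2, the library with the high macrophage sum, and 1.23 without WT ethanol liver 1, where it passed (edgeR adjusted *P* = 0.0393). With all livers kept, this diet effect passed in DESeq2 (adjusted *P* = 0.015). In *Ahr* HKO the diet effect was 0.31 ± 0.228 (edgeR adjusted *P* = 0.334), and the interaction was -0.67 ± 0.434 (edgeR adjusted *P* = 0.293), or -0.27 without WT ethanol liver 2, the smallest size with any 1 liver left out.

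*Hsp90ab1* stood at 819, 906 and 740 CPM in WT control livers and at 911, 1366 and 1051 CPM in WT ethanol livers. It was 1253, 949 and 976 CPM in *Ahr* HKO control livers and 1579, 2015 and 1746 CPM in *Ahr* HKO ethanol livers. The *Ahr* HKO ethanol livers were above all other livers of the study. With ethanol *Hsp90ab1* was upregulated by 1.68-fold in *Ahr* HKO (log2 fold change 0.75 ± 0.173, edgeR adjusted *P* = 0.0176), a call that did not hold without *Ahr* HKO ethanol liver 2 or 3 (adjusted *P* 0.0577 and 0.0533). In WT the estimate was 0.45 ± 0.181 (edgeR adjusted *P* = 0.169) and 0.26 without WT ethanol liver 2. The interaction, at 0.31 ± 0.247, did not pass (edgeR adjusted *P* = 0.388), so the diet effects were not shown to differ between genotypes. For genotype, the estimates were 0.37 ± 0.157 on the control diet (edgeR adjusted *P* = 0.116, and 0.24 without *Ahr* HKO control liver 1) and 0.68 ± 0.189 on the ethanol diet (edgeR adjusted *P* = 0.12), both without overlap between the livers. On the ethanol diet the genotype difference passed in DESeq2 (adjusted *P* = 0.0123).

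The pair of Hsp90 genes thus differed in which comparison passed, and their ratio was examined within each liver. On the TPM scale *Hsp90aa1* made up 8.47%, 9.96% and 8% of their summed level in WT control livers and 9.29%, 14.5% and 12.3% in WT ethanol livers. In *Ahr* HKO it made up 22.6%, 24% and 20.4% on the control diet and 15.1%, 19.4% and 17.4% on the ethanol diet. The 3 *Ahr* HKO control livers had the highest shares of the study, and the 3 *Ahr* HKO ethanol livers came next, above all WT livers. The geometric mean ratio of *Hsp90aa1* to *Hsp90ab1* was 2.99-fold higher in *Ahr* HKO than in WT on the control diet and 1.55-fold higher on the ethanol diet. Within *Ahr* HKO it was lower with ethanol, 0.208 against 0.287. Each of these 3 comparisons gave the smallest exact permutation *P* of 0.1 (0.16 after adjustment), so this design could not reach the threshold of 0.05. For diet in WT, with ratios that overlapped, the exact permutation *P* was 0.2.

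**Figure D4:**
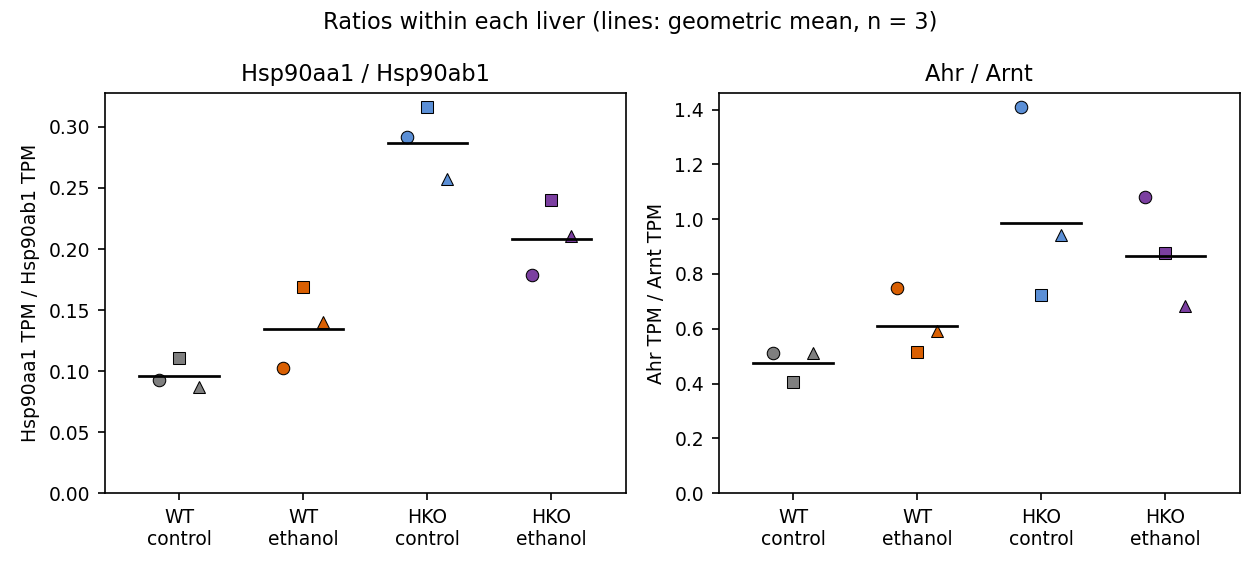
TPM ratio of *Hsp90aa1* to *Hsp90ab1* (left) and of *Ahr* to *Arnt* (right) within each liver, on linear axes from 0; symbols are livers 1 to 3 and lines are geometric means (n = 3). The Hsp90 ratio lies between 0.0869 and 0.111 in WT control livers and between 0.257 and 0.316 in *Ahr* HKO control livers.

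The coding sequences of *Hsp90aa1* (2202 bases) and *Hsp90ab1* (2175 bases) were identical at 76.6% of aligned bases, with a longest identical run of 33 bases, and no stretch of 100 bases, the length of 1 read, occurs in transcripts of both. Such stretches are shared with pseudogenes: 47.5% of the 100-base windows of the *Hsp90aa1* transcript occur in *Gm12346*, *Gm5844* or *Gm5511*, and 20.2% of those of *Ptges3* in *Ptges3-ps* or *Gm11893*. None of these pseudogenes has a row in the gene table, so it is uncertain how reads shared with them were counted, and the levels of *Hsp90aa1* and *Ptges3* carry that limit. *Arnt*, *Ahrr* and *Hsp90ab1* had no such window, and *Ahr* had 0.514%, in an annotated gene on the opposite strand (*Gm48236*) that overlaps 127 bases of its transcript.

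*Ptges3* encodes p23, which stabilizes the Hsp90 dimer around AhR. It was measured at 77.2, 76.3 and 68.8 CPM in WT control livers and at 88.6, 104 and 101 CPM in WT ethanol livers. In *Ahr* HKO it stood at 101, 92.2 and 100 CPM on the control diet and at 92.8, 117 and 113 CPM on the ethanol diet. The WT control livers were below all other livers of the study. *Ptges3* was upregulated by 1.32-fold in *Ahr* HKO on the control diet (log2 fold change 0.40 ± 0.097, edgeR adjusted *P* = 0.0196), which did not hold without WT control liver 2 or 3 or without *Ahr* HKO control liver 1 (adjusted *P* from 0.0513 to 0.0736). In WT the change with ethanol, 0.41 ± 0.104, lay just above the threshold (edgeR adjusted *P* = 0.0505), and it passed in DESeq2 (adjusted *P* = 0.00776). It was 0.36 without WT ethanol liver 2 (edgeR adjusted *P* = 0.122). In *Ahr* HKO the diet effect was 0.14 ± 0.124 (edgeR adjusted *P* = 0.435). On the ethanol diet the genotypes differed by 0.14 ± 0.129 (edgeR adjusted *P* = 0.576), and the sign turned on the FPKM scale (limma, -0.09). The promoter of *Ptges3* (chr10:128058732-128059031, plus strand, GRCm38.p6) is shown with its GCGTG matches in capitals.
*Ptges3* promoter: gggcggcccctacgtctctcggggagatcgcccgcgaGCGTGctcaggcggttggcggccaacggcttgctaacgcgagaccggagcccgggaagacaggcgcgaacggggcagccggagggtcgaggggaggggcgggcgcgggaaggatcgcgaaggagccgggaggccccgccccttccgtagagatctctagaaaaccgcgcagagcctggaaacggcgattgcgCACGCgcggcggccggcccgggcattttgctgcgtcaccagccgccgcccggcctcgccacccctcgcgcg

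The co-chaperones that work with Hsp90 were taken as a list of 18 genes, all tested. This list and those below were chosen with earlier results of these data known, so their shares are not independent evidence. For genotype on the control diet 6 were upregulated and 0 downregulated (33.3% and 0%, against 15.4% and 14.2% of all genes), with a median log2 fold change of 0.04 over the list and 0.00 over all genes. With ethanol in *Ahr* HKO 8 rose and 1 fell (44.4% and 5.56%, against 14.9% and 15.9% of all genes), with medians of 0.31 and -0.02. In WT 0 of 18 passed (edgeR), with 9 at an unadjusted *P* under 0.05, and for genotype on the ethanol diet 1 did. Without *Ahr* HKO control liver 1, 5 rose with genotype on the control diet and 6 with ethanol in *Ahr* HKO, and without WT ethanol liver 2 none passed for genotype on the ethanol diet. *Fkbp5*, an immunophilin of steroid receptor complexes that glucocorticoids induce, was the one that passed for genotype on both diets: it stood at 52.5, 59.4 and 102 CPM in WT control livers and at 317, 217 and 486 CPM in *Ahr* HKO control livers (log2 fold change 2.26 ± 0.363, edgeR adjusted *P* = 0.00485). On the ethanol diet its difference was 1.23 ± 0.181 (edgeR adjusted *P* = 0.0383). *Fkbp4*, its counterpart in steroid receptor complexes, went another way. It was 127, 102 and 108 CPM in *Ahr* HKO control livers and 236, 301 and 255 CPM with ethanol (1.24 ± 0.146, edgeR adjusted *P* = 0.00269), and the interaction passed (0.78 ± 0.212, adjusted *P* = 0.0237), while genotype on the control diet gave -0.18 (adjusted *P* = 0.299).

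*Chordc1*, a co-chaperone that binds Hsp90, and *Stip1*, which links Hsp70 to Hsp90, were upregulated in *Ahr* HKO both by genotype on the control diet and by ethanol. *Chordc1* was 16.3, 19.7 and 17.7 CPM in WT control livers, 32.4, 30.8 and 33.6 CPM in *Ahr* HKO control livers and 46.5, 60.2 and 47.8 CPM in *Ahr* HKO ethanol livers (log2 fold changes 0.85 ± 0.099 and 0.68 ± 0.126, edgeR adjusted *P* = 0.00169 and 0.00893). *Stip1* changed by 0.77 ± 0.138 and 0.93 ± 0.178 in the same comparisons (edgeR adjusted *P* = 0.00698 and 0.00984). *Unc45a*, a myosin and Hsp90 co-chaperone, rose with genotype on the control diet (0.42) and was the 1 gene of the list that fell with ethanol in *Ahr* HKO (-0.67, edgeR adjusted *P* = 0.00327). *St13*, which holds Hsp70 in the complex, rose with ethanol in *Ahr* HKO (0.55, edgeR adjusted *P* = 0.00786).

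The promoter of *Chordc1* (chr9:18292017-18292316, plus strand, GRCm38.p6) is shown as a gene that moved in the same direction as *Hsp90aa1* on the control diet, with matches to the heat shock element in capitals (GAA, TTC and GAA with any 2 bases between neighbours, or the reverse complement of that).
*Chordc1* promoter: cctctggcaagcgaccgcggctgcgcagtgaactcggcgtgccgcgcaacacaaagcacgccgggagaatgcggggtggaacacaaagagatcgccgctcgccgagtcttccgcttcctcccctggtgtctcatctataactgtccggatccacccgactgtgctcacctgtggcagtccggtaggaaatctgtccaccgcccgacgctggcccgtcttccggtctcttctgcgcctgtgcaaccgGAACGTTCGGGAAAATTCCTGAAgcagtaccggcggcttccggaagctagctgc
It holds 3 overlapping matches. Such a match occurs in 0.603% of all promoter windows, in 4 of the 23 windows of the heat shock chaperone genes (for *Hspd1*, *Hspe1* and *Hsph1*), in 1 of 18 windows of the co-chaperones (*Chordc1*), and in none of the windows of *Ahrr*, *Arnt* and *Ptges3*. The matching windows of *Hspd1* and *Hspe1* overlap on opposite strands and hold the same sites, and the windows of *Hsph1* overlap each other. Each of these sites is thus counted more than once.

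Among 20 heat shock chaperones and their regulators, 10 were upregulated and 0 downregulated by genotype on the control diet (50% and 0%, against 15.4% and 14.2% of all genes). The median log2 fold change was 0.58, and 8 were upregulated without *Ahr* HKO control liver 1. Ethanol raised 2 in WT (10% against 4.84% of all genes) and 6 in *Ahr* HKO (30% against 14.9%), with medians of 0.37 and 0.54, and for genotype on the ethanol diet 0 passed (edgeR), with 11 at an unadjusted *P* under 0.05 and a median of 0.58. *Hspb8*, a small heat shock protein, stood at 130, 129 and 129 CPM in WT control livers and at 335, 225 and 448 CPM in *Ahr* HKO control livers (1.39 ± 0.236, edgeR adjusted *P* = 0.00593), and like *Ahr* it passed the interaction test in the downward direction (-0.95, adjusted *P* = 0.0352). In that direction 2 of the list passed (10% against 11.1% of all genes), and 0 without WT ethanol liver 2 or without *Ahr* HKO control liver 1. *Bag3*, which pairs with *Hspb8* in disposing of misfolded protein, rose with ethanol in WT (0.69) and with genotype on the control diet (1.33 ± 0.151, edgeR adjusted *P* = 0.00162). *Hsp90b1*, the Hsp90 of the endoplasmic reticulum, rose with genotype on the control diet (1.49 ± 0.281, edgeR adjusted *P* = 0.00821), as did *Hspa4* (0.58), an Hsp110-type exchange factor. *Hspa8*, the constitutive Hsp70, rose with ethanol in *Ahr* HKO from 1066, 869 and 1236 CPM to 2045, 2664 and 2214 CPM (1.13 ± 0.191, edgeR adjusted *P* = 0.00678), as did *Hsph1*, another exchange factor (1.53 ± 0.285, edgeR adjusted *P* = 0.00896), which also rose with genotype on the control diet (1.09).

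**Figure D5:**
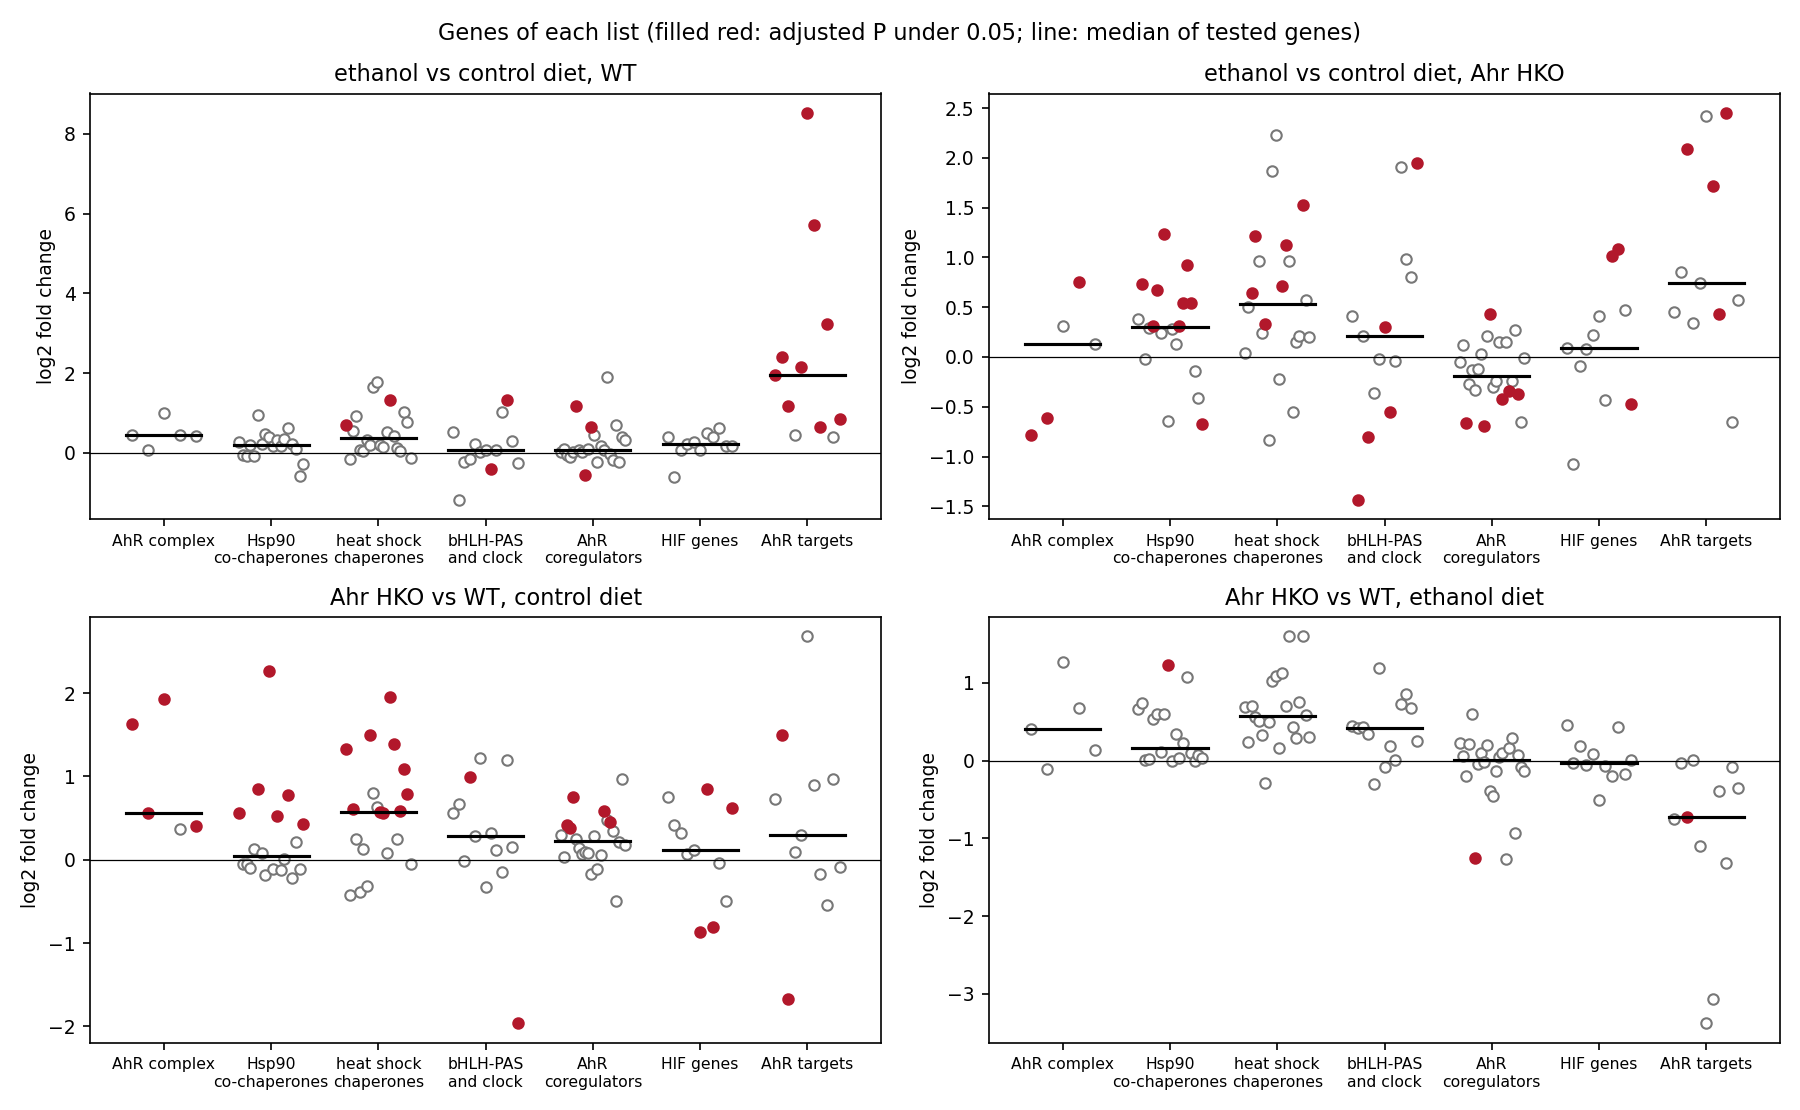
Log2 fold change (vertical axes, which differ between panels) of each tested gene of the AhR complex and of 6 related lists in the 4 comparisons of 2 groups; filled red points have edgeR adjusted P under 0.05, open points do not, and lines are medians of the tested genes. Red points of the chaperone lists lie above 0 except for *Unc45a* with ethanol in *Ahr* HKO, and 9 of the 11 tested AhR targets are red and above 0 with ethanol in WT.

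Of 19 other bHLH-PAS genes, clock partners and coactivators, 13 were tested. With ethanol in *Ahr* HKO 2 rose and 3 fell (15.4% and 23.1%, against 14.9% and 15.9% of all genes). In WT 1 rose and 1 fell with ethanol (7.69% each, against 4.84% and 4.63%), and neither count held without WT ethanol liver 2, where both were 0. For genotype on the control diet 1 rose and 1 fell (7.69% each, against 15.4% and 14.2%). *Epas1*, which encodes the ARNT partner HIF-2α, passed in the same comparisons and directions as *Arnt* for genotype on the control diet and for diet in *Ahr* HKO: it was 230, 246 and 214 CPM in WT control livers, 351, 396 and 615 CPM in *Ahr* HKO control livers (0.99 ± 0.218, edgeR adjusted *P* = 0.0147) and 297, 230 and 253 CPM in *Ahr* HKO ethanol livers (-0.81 ± 0.232, adjusted *P* = 0.0373). *Hif1a* passed only the interaction test (-0.58, edgeR adjusted *P* = 0.0237). *Per1*, a clock repressor, rose with ethanol in WT (1.34), and *Per3* was lower with genotype on the control diet (-1.96) and higher with ethanol in *Ahr* HKO (1.95, edgeR adjusted *P* = 0.0369). *Ncoa2*, a coactivator, fell with ethanol in WT (-0.41) and in *Ahr* HKO (-0.55). *Arntl2*, an ARNT-like clock gene at 0.159 to 1.4 CPM, fell with ethanol in *Ahr* HKO (-1.44, edgeR adjusted *P* = 0.0237). The hours at which livers were taken are not given in the sources used here, and their part in the values of clock genes was not tested.

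Of 22 coregulators and turnover factors of AhR, all tested, 5 rose and 0 fell with genotype on the control diet (22.7% and 0%, against 15.4% and 14.2% of all genes). With ethanol in *Ahr* HKO 1 rose and 5 fell (4.55% and 22.7%, against 14.9% and 15.9%). Without *Ahr* HKO control liver 1 the 5 that fell became 3 and the 1 that rose became 0. The shares of 22.7% lay near those of all genes, and the shares in the other direction were lower. *Ddb1*, part of the ubiquitin ligase that acts with AhR, rose with genotype on the control diet and fell with ethanol in *Ahr* HKO (0.41 and -0.67, edgeR adjusted *P* = 0.0256 and 0.00673). So did *Rela*, an NF-κB subunit (0.59 and -0.42), and *Smarca4*, a chromatin remodeller (0.46 and -0.34). *Klf6*, a partner of AhR at other DNA sites, rose with ethanol in WT (1.18 ± 0.184, edgeR adjusted *P* = 0.0134) and was lower in *Ahr* HKO on the ethanol diet (-1.25 ± 0.175, adjusted *P* = 0.0376), with an interaction of -1.5 (adjusted *P* = 0.00595). Without WT ethanol liver 2 no gene of the list passed as lower for genotype on the ethanol diet. *Nfe2l2*, the regulator of antioxidant genes, rose with ethanol in both genotypes (0.66 and 0.43). Of 12 oxygen-sensing enzymes and targets of ARNT with hypoxia-inducible factors, 11 were tested, and 2 rose and 2 fell with genotype on the control diet (18.2% each, against 15.4% and 14.2% of all genes, so near the share of all genes). *Vhl*, which marks these factors for degradation, rose (0.62) and then fell with ethanol in *Ahr* HKO (-0.47, edgeR adjusted *P* = 0.0393), while *Pdk1*, a kinase that limits pyruvate oxidation, was lower with genotype (-0.81) and rose with ethanol in *Ahr* HKO (1.01, adjusted *P* = 0.0417). *Ndrg1* was higher (0.85) and *Egln3*, an oxygen-sensing hydroxylase, lower (-0.86) with genotype on the control diet, and the glucose transporter *Slc2a1* rose with ethanol in *Ahr* HKO (1.09). With ethanol in *Ahr* HKO 2 of these 11 rose and 1 fell (18.2% and 9.09%, against 14.9% and 15.9% of all genes). Without *Ahr* HKO control liver 1 these counts were 1 and 0.

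Genes known as AhR targets were taken as a further list, and whether AhR drove their changes here was not tested. Of 12 listed, 11 were tested. With ethanol 9 rose in WT (81.8% against 4.84% of all genes, median log2 fold change 1.94) and 4 in *Ahr* HKO (36.4% against 14.9%, median 0.75). Without WT ethanol liver 2 the count in WT was 8, and without *Ahr* HKO control liver 1 that in *Ahr* HKO was 3. The list holds genes that the study examined in these same livers, so its counts are not independent evidence of a direction. *Cyp1a1* rose in WT (2.40 ± 0.389, edgeR adjusted *P* = 0.0151) at a low level, from 0.349, 0.214 and 0.204 CPM to 1.36, 1.02 and 1.66 CPM, and *Cyp1a2*, an oxidase of caffeine and arylamines, was at 617, 398 and 456 CPM in WT control livers and at 90.7, 112 and 258 CPM in *Ahr* HKO control livers (-1.67 ± 0.401, edgeR adjusted *P* = 0.0197). *Cyp1a2* was also lower in *Ahr* HKO on the ethanol diet (-0.73 ± 0.116, edgeR adjusted *P* = 0.0433), and it rose with ethanol in both genotypes (1.16 and 2.09). *Cyp1a1*, in contrast, was higher in *Ahr* HKO on the control diet (1.5 ± 0.461, edgeR adjusted *P* = 0.0453). *Nqo1* rose with ethanol in both genotypes (3.23 and 2.45), as did *Gsta1* (5.71 and 1.72), whose interaction passed (-3.97, edgeR adjusted *P* = 0.00649), as did that of the fatty acid transporter *Cd36* (-1.48, adjusted *P* = 0.0165), which rose in WT (1.94). *Ugt1a6a* rose in WT (0.85). Without WT ethanol liver 2 no target passed for genotype on the ethanol diet, and without *Ahr* HKO control liver 1 none was higher for genotype on the control diet. Among the members, *Ahr* itself did not pass by edgeR in the WT comparison in which most of these targets rose.

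The genes whose pattern over the 12 libraries was most like that of each member were found by the root-mean-square difference of centred log2 CPM, among 14037 other genes. For *Ahr* they were *Hspb8* (0.217), *S100a10* (0.265) and *Galnt2* (0.272), where the median over all genes was 0.737. *Arnt* was closest to *Bzw1* (0.0882), *Iqgap2* (0.0929) and *Gnl3l* (0.0934), and *Ptges3* to *Phf3* (0.0743), *2900097C17Rik* (0.0842) and *Zfp180* (0.0911). For *Hsp90ab1* they were *Cacybp* (0.144), *Dnaja1* (0.149) and *Acrbp* (0.168), of which *Dnaja1* is a co-chaperone of Hsp70. For *Hsp90aa1* the nearest were *Mettl20* (0.420), *AA986860* (0.422) and *Mbd1* (0.441), against a median of 1.03. These differences depend on how much a gene itself varies, so they are not comparable between members. The root mean square of the centred values was 0.950 for *Hsp90aa1*, 0.265 for *Arnt* and 0.223 for *Ptges3*. No member was among the nearest genes of another member.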

How the data were processed

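RNA of 12 mouse livers (3 in each of 4 groups) was sequenced as stranded poly(A) libraries with paired reads of 100 bases. Per the submitters' processing notes, the tools were FastQC 0.11.7, Trimmomatic 0.38, HISAT2 2.1.0, Bowtie2 2.3.4.1 and StringTie 1.3.4d, with the build mm10. The authors deposited a raw read count, an FPKM and a TPM value for each gene and library from that assembly step. FPKM is scaled by the authors to gene length and mapped reads, and TPM to a near-equal total per library (924962 to 987569 here). Whether counting used strand is not given in the sources used here. The files hold no columns of other samples.

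Counts of 46306518 to 74336255 reads per library were reduced to 14038 of 24532 genes by filterByExpr, given the 4 groups, and scaled by TMM (factors 0.925 to 1.16). edgeR 4.0.16 (R 4.3.3) fitted the quasi-likelihood test to the 6 libraries of each pair of groups and to all 12 for the interaction, with Benjamini-Hochberg adjustment over all tested genes. SE is the log2 fold change divided by the square root of the F statistic. The scripts were tested on simulated data. Alternatives used DESeq2 1.42.0, limma 3.58.1 on log2(FPKM + 1) or log2(FPKM + 0.1), other scaling, other filters, one fit of all libraries, a replicate block and leaving out each liver. Ratios of TPM values were compared with exact permutation tests. Sequences came from GENCODE M21 transcripts and RefSeq promoters, of which 3 of the 6 members have one in the table used, and transcript windows of 100 bases were matched across all transcripts.

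The members, gene lists and tests were chosen with earlier results of these data known. Named genes were the members, all list genes that passed in a comparison (where over 6, the 6 with the smallest *P*) and the 3 genes nearest in pattern to each member. Some list genes are not reported here by name. No 2 libraries were identical, and no 2 libraries of the same group agreed within sampling noise. *P* values of edgeR, DESeq2 and limma set a difference between groups against the spread between the 3 livers of a group.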

Additional observations from a re-analysis of the deposited data

Results flagged for a closer look

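The response to the ethanol diet differed between genotypes for *Ahr*, by the interaction term over all 12 libraries (-1.23 on the log2 scale, edgeR adjusted *P* = 0.0176): the estimate was 0.45 in WT and -0.79 in livers labelled *Ahr* HKO. It differed for *Arnt* as well (-0.67, edgeR adjusted *P* = 0.0153), with estimates of 0.07 in WT and -0.61 in *Ahr* HKO. In the same interaction test 7 of 10 macrophage markers and 3 of 3 tested neutrophil markers passed with a negative term, against 11.1% of all genes. Without WT ethanol liver 2 these counts were 2 of 10 and 2 of 3. The part of these cells in both results was not tested. Without *Ahr* HKO control liver 1, which had the highest macrophage sum, 1 of 10 macrophage markers passed with a negative term. The interaction was then -1.12 for *Ahr* (edgeR adjusted *P* = 0.039) and -0.80 for *Arnt* (adjusted *P* = 0.00473).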

How the results depend on the processing

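For diet in WT, where 0 members were called, 2 were called by DESeq2, 1 with at least 10 counts in every library, 1 in a single fit of all 12 libraries, and 2 by limma on log2(FPKM + 1) and 2 on log2(FPKM + 0.1), and leaving out 1 liver gave 0 to 2. For diet in *Ahr* HKO leaving out 1 liver gave 0 to 3 calls, and for genotype on the control diet 2 to 4. For genotype on the ethanol diet DESeq2 called 2 and the single fit 1, against 0, and 0 with any liver left out. For the interaction 9 alternatives gave 2 to 3 calls, against 2, and 2 with any liver left out. With the replicate number as a block, the calls were 1 for diet in *Ahr* HKO, 2 for genotype on the control diet and 1 on the ethanol diet. Deviations of same-numbered livers correlated at -0.0884 to 0.178, over 0.1 in 2 of 12 pairs, both for genotype on the ethanol diet (0.178 and 0.133). The numbers are only those of the sample titles, so this check cannot show whether livers were paired or shared a batch. *Ptges3* changed sign for diet in *Ahr* HKO with quantile-normalized FPKM (-0.018) and for genotype on the ethanol diet with limma on log2(FPKM + 1) (-0.0859), on log2(FPKM + 0.1) (-0.0874) and without the filter (-0.0859). The *Ahr* to *Arnt* ratio for diet in *Ahr* HKO lay between -0.41 and 0.0652 (log2) with 1 liver left out. The causes were not tested. Of 245 member fold changes under alternatives, 220 kept direction and side of the threshold, 14 passed newly, 7 no longer passed (*Ahr* for diet in *Ahr* HKO with the block, adjusted *P* = 0.0598, among them) and 4 changed sign. Of 180 with 1 liver left out, 163 kept both, 2 passed newly and 15 no longer passed. Counts of list genes without WT ethanol liver 2 or *Ahr* HKO control liver 1, chosen after seeing the data, stayed within 1.5 times in 37 of 77 cases.

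Over all genes, calls for diet in WT were 1329 (517 to 2335 under alternatives, 367 to 1026 with 1 liver left out), for diet in *Ahr* HKO 4322 (3005 to 5139, and 2588 to 3792), for genotype 4161 on the control diet (2999 to 4859, and 2630 to 3748) and 155 on the ethanol diet (18 to 1521, and 7 to 189), and for the interaction 3137 (2745 to 3977, and 2267 to 3084). limma on FPKM moved the median of all genes by up to 0.134 for diet in WT, -0.199 for genotype on the ethanol diet and -0.215 for the interaction. The share of calls that were higher then went from 51.1% to at most 80.4%, from 64.5% to as low as 17.4% (47.2% in DESeq2), and from 50.2% to as low as 23.2%. Depth limited *Ahrr*, whose counts did not exceed 12.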
